A study of Homo sapiens with 12 samples.

Results

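The peaks described here lie on 3 microRNA primary or host transcripts: DLEU2, which carries miR-15a and miR-16-1, C7orf50, which carries miR-339 in an intron, and a stretch of chromosome 19 just upstream of the miR-23a, miR-27a and miR-24-2 hairpins. They were chosen as the NONO peaks that the authors annotated to DLEU2 or C7orf50, plus those they annotated as intergenic on the minus strand at chr19:13836816-13842828 (GRCh38). Together they are 475 of 26351 deposited peaks, with 85 on DLEU2, 338 on C7orf50 and 52 in the chromosome 19 window. They were chosen by measured values, namely by having peaks in these lists, so the presence of peaks, their number over all lists and their deposited enrichment are descriptions and not findings. By number of peaks, C7orf50 ranked 7, DLEU2 ranked 62 and the window ranked 115 among 1691 annotated features, a rank that leans on the longest list. C7orf50 had 2 features above it there, in SKBG-1(R) replicate 2, but 134 in SKBG-1(S) replicate 1 and no peak in 2 lists.

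The study used eCLIP to map where NONO touches RNA in 22Rv1, a cell line from a human prostate cancer. The eCLIP assay fixes protein to RNA with UV light, pulls the protein down with an antibody and sequences the attached RNA pieces, with an input library as reference. All cells were 22Rv1 without any genetic change named in these samples' labels, cultured for 40 h (2 to 3 plates for each treatment), exposed to compound or vehicle for 4 h, crosslinked at 400 mJ and precipitated with a rabbit antibody to NONO. The DMSO group received 0.04% DMSO, and the SKBG-1(R) and SKBG-1(S) groups received 20 µM of that stereoisomer in the same 0.04% DMSO. Each of the 3 groups had 2 immunoprecipitation libraries with their inputs, so that 12 libraries gave 6 peak lists. The labels do not say that the replicates were separate cultures, so every p-value reflects the spread between these 6 lists alone, and that spread may be technical.

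The lists differed strongly in length, from 669 peaks in DMSO replicate 1 to 14847 in SKBG-1(R) replicate 2, which alone gave 56.3% of all peaks, and the read depth behind them is unknown. Each peak had passed a deposited log2 enrichment over input of at least 3 and a deposited −log10 p of at least 3. Of 6 genes marking prostate cells, TMPRSS2 and SPDEF held a peak and KLK3, KLK2, FOLH1 and HOXB13 held none, while 0 of 4 markers of other cell types did. A peak list is no measure of expression, so this is only a weak check of the label. RNA levels were not analysed here, and fewer contacts per RNA cannot be told apart from less RNA.

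MicroRNAs begin as hairpins within long primary transcripts. In the nucleus the Drosha and DGCR8 complex cuts the hairpin out, Dicer trims it in the cytoplasm, and bases near its 5′ end, the seed, then pair with target mRNAs. DLEU2 is a long noncoding RNA of the chromosome 13 region often deleted in chronic lymphocytic leukaemia, and miR-15a and miR-16-1 are known for targeting BCL2 and cyclin transcripts. The miR-23a, miR-27a and miR-24-2 hairpins are made from 1 primary transcript. NONO and its partner SFPQ are paraspeckle proteins that have been described as binding primary microRNA transcripts widely and aiding their processing.

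The mature microRNAs of these transcripts are printed to show what each host carries, from RefSeq on GRCh38.p14, 5′ to 3′, with the seed (bases 2 to 8) in capitals.
hsa-miR-15a-5p: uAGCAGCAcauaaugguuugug
hsa-miR-16-5p: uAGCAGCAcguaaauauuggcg
hsa-miR-339-5p: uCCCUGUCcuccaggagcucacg
hsa-miR-23a-3p: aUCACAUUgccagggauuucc
hsa-miR-27a-3p: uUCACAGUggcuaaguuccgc
hsa-miR-24-3p: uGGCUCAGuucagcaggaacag
The DLEU2 pair shared 1 seed, AGCAGCA, and 16 identical bases along their 22, whereas the other 4 microRNAs each had a seed that none of the rest had. None of the DLEU2 or chromosome 19 peaks covered a hairpin, so these mature sequences lay outside every peak of those transcripts.

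The RNA under the most widely shared peaks of the chromosome 19 window is shown next, sites A and B because 5 of 6 lists held peaks there, and site C because it was the distal site held by the most lists, 3. These runs are GRCh38, minus strand, read 5′ to 3′ from the GENCODE 29 transcript that spans the window, at chr19:13842609-13842708 for site A, chr19:13842326-13842469 for site B and chr19:13839836-13839945 for site C. Capitals mark bases covered by peaks of at least 4 lists in A and B, and of at least 3 lists in C.
MIR23AHG site A: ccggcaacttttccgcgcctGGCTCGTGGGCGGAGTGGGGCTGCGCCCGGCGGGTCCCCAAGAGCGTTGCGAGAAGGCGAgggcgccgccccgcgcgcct
MIR23AHG site B: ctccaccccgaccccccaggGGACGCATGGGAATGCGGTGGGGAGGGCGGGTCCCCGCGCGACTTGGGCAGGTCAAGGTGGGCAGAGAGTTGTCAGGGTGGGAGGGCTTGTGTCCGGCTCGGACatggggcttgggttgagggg
MIR23AHG site C: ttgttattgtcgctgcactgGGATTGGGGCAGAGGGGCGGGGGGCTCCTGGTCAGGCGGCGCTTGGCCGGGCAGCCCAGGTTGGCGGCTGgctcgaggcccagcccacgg
Sites A and B lie within the first 1000 nt of the transcript, and site C about halfway to the hairpins. G and C make up 77.0% of the run printed for A, 70.1% of B and 71.8% of C.

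A pair of DLEU2 stretches is shown as well, both GRCh38 and minus strand, the first because 5 lists held peaks there and the second because peaks lie upstream of an annotated start. The site in the first exon, at chr13:50125383-50125503, has capitals where at least 4 lists held a peak. The stretch just upstream of the internal start of DLEU2, at chr13:50082003-50082193 from the RefSeq promoter table, has capitals where at least 1 list did, and no base of it was covered by more than 2 lists.
DLEU2 first exon site: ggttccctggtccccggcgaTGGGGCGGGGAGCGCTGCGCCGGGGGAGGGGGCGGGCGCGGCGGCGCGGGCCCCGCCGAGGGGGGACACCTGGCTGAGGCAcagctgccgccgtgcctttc
DLEU2 internal start: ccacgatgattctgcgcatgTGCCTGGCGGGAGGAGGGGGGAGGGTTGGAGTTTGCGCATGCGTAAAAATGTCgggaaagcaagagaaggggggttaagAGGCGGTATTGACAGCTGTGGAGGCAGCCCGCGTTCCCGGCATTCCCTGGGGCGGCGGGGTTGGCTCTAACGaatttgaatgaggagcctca
The first-exon run was 81.8% G and C, against 59.7% in the run by the internal start.

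On DLEU2 (ENSG00000231607, chr13:49982552-50125720, minus strand, an antisense long noncoding gene in GENCODE 29), NONO contacts were packed at the start of the RNA and absent from the microRNA hairpins. Distances are counted from the 5′ end of the transcript that spans the whole gene, at position 50125541. Of the 85 peaks, 71 (83.5%) began within 2000 nt of that end, against 26.0% of all 25947 peaks on annotated genes. That background ran from 19.1% in SKBG-1(R) replicate 2 to 48.5% in SKBG-1(R) replicate 1, and was 30.2% when lists were weighted by their DLEU2 peaks. These 71 lay in a stretch of 1528 nt, which is 1.07% of the gene, with 8 in the 240-nt first exon and 63 in the first intron. The remaining 14 lay by an internal start used by shorter DLEU2 transcripts, at position 50081978, with 3 upstream of it and 11 downstream. Between the groups of peaks was a gap of 41798 nt with none, and the peak nearest to the miR-15a and miR-16-1 hairpins was still 31811 nt upstream of them.

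**Figure D1:**
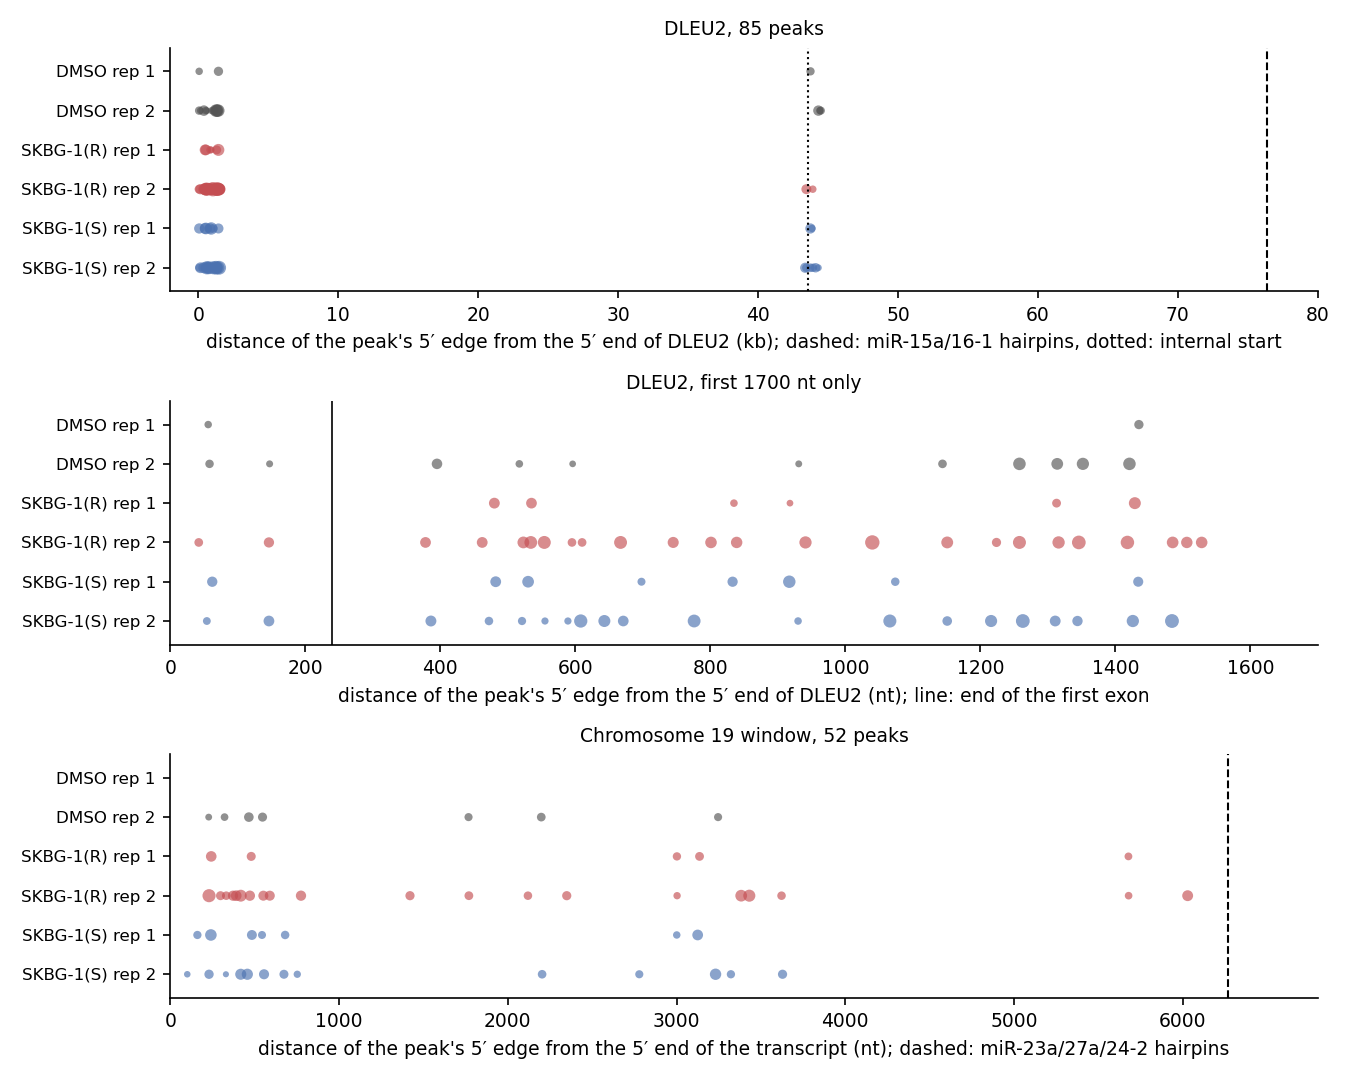
Each point is 1 peak in 1 list (rows), placed by the distance of its 5′ edge from the 5′ end of the transcript, and a larger point has a higher deposited log2 enrichment. DLEU2 peaks gather in the first 1528 nt or so and by the internal start, and 29 of the 52 chromosome 19 peaks lie in the first 1000 nt, upstream of the hairpins marked by dashed lines.

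The cluster at the DLEU2 start was seen in every list, and the smaller one by the internal start in 5 of 6. By list, the peaks in the first exon or in the first intron near the 5′ end numbered 2 of 3 in DMSO replicate 1, 11 of 14 in DMSO replicate 2, 6 of 6 in SKBG-1(R) replicate 1, 24 of 26 in SKBG-1(R) replicate 2, 8 of 10 in SKBG-1(S) replicate 1 and 20 of 26 in SKBG-1(S) replicate 2. By the internal start there were 1, 3, 0, 2, 2 and 6 peaks in the same order. SKBG-1(R) replicate 1 was the list with none there, among only 6 DLEU2 peaks.

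Peaks that overlapped, whatever their list, were joined into regions, and DLEU2 formed 15. Of these, 5 were held by at least 4 lists (33.3%), against 626 of 16419 regions over the series (3.81%). The region at chr13:50123972-50124397, in the first intron and 1144 nt from the 5′ end, was the one region held by all 6 lists. Its strongest peak had a log2 enrichment of 3.85 and 5.03 for DMSO, 4.79 and 5.51 for SKBG-1(R), and 4.10 and 5.59 for SKBG-1(S), replicate 1 first. All 6 lists covered the same 60 bases of it, at chr13:50124047-50124106. The enrichment was higher in replicate 2 than in replicate 1 of each group, and the 3 groups overlapped.

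Among the other 4 DLEU2 regions held by at least 4 lists, chr13:50124663-50124796 had no DMSO peak and so allowed no comparison. In the rest the listed DMSO values lay below the compound values, with 1 exception, the lower value of SKBG-1(R) replicate 1 at chr13:50124548-50124624. At chr13:50124875-50125079 and chr13:50124548-50124624 this rests on DMSO replicate 2 alone. The region held by every list, at chr13:50123972-50124397, lacked this order, with 3.85 and 5.03 for DMSO against 4.10 to 5.59 in the compound lists. The region at chr13:50124875-50125079 had no peak in DMSO replicate 1 and a log2 enrichment of 3.39 in DMSO replicate 2, with 4.36 and 5.19 for SKBG-1(R) and 4.69 and 5.33 for SKBG-1(S). The region at chr13:50124548-50124624 had 3.21 in DMSO replicate 2, 3.17 and 4.90 for SKBG-1(R), and 4.98 and 3.36 for SKBG-1(S), and again no peak in DMSO replicate 1. The region at chr13:50124663-50124796 was listed in neither DMSO list and in all 4 compound lists, at 3.38 and 4.63 for SKBG-1(R) and at 4.16 and 5.15 for SKBG-1(S). These are the authors' own values, called in libraries of unknown depth, and whether depth accounts for the missing peaks was not tested. Among DLEU2 regions held by fewer lists, DMSO was higher at chr13:50081083-50081235, where its replicate 2 had 4.21 against 3.22 for SKBG-1(S) replicate 2. It was again lower at chr13:50081711-50081805 and chr13:50125090-50125163. Whole-list medians were 3.59 for DMSO replicate 2, the lowest, and 3.72 for DMSO replicate 1. The compound lists had 3.64 to 3.77. The share of all regions with DMSO lowest was not counted, so how unusual such an order is remains unknown.

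The first-exon region at chr13:50125332-50125499, whose core sequence is printed above, starts 42 nt from the 5′ end. It had a log2 enrichment of 3.35 and 3.61 for DMSO, 4.17 in SKBG-1(R) replicate 2, and 4.18 and 4.34 for SKBG-1(S), with no peak in SKBG-1(R) replicate 1. The most enriched DLEU2 region of all, at chr13:50124415-50124501, was held by only 3 lists, at 5.83 in SKBG-1(R) replicate 2 and 3.61 and 5.24 for SKBG-1(S). The strongest DLEU2 peak by −log10 p ranked 214 of 669 and 67 of 3678 in the DMSO lists. It ranked 327 of 1953 and 331 of 14847 in the SKBG-1(R) lists, and 89 of 1237 and 27 of 3967 in the SKBG-1(S) lists.

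**Figure D2:**
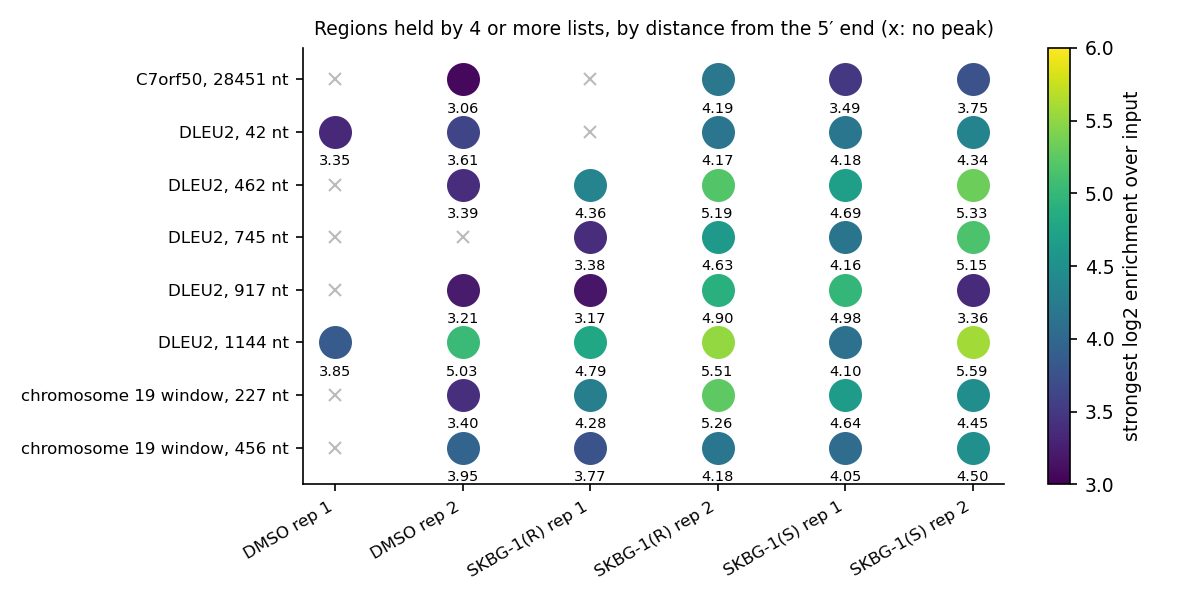
Rows are the 8 regions held by at least 4 lists, named by their distance from the 5′ end, and columns are the 6 lists. Colour and number give the highest deposited log2 enrichment of a peak there, and a cross marks no peak. Only the DLEU2 region at 1144 nt has a value in all 6 lists, and C7orf50 has 1 such region.

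Under each compound, every DLEU2 peak of the shorter list overlapped a peak of its replicate, while under DMSO not all did. All 10 DLEU2 peaks of SKBG-1(S) replicate 1 overlapped a peak of replicate 2, which is 100% of the shorter list, and 13 of 26 (50%) overlapped in the other direction. For SKBG-1(R) the counts were 6 of 6 and 13 of 26, and for DMSO 2 of 3 and 2 of 14. Such overlap was not particular to replicates, as some lists of other treatments overlapped as much or more. SKBG-1(S) replicate 2 overlapped 3 of 3 DLEU2 peaks of DMSO replicate 1, 13 of 14 of DMSO replicate 2 and 6 of 6 of SKBG-1(R) replicate 1. Both lists of a group held 2 DLEU2 regions under DMSO, 4 under SKBG-1(R) and 9 under SKBG-1(S), and none of them was held by that group alone.

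The chromosome 19 window also had many contacts near the start of the RNA and none on the hairpins, but its peaks came closer to the hairpins. Within 2000 nt of the 5′ end lay 61.5% of them, against a background of 29.5% when lists were weighted by the window's peaks. The RNA here is far shorter than DLEU2 (19049 against 143169 nt), so this share is not strictly comparable with that of DLEU2. The window's 52 peaks were most of the 60 peaks that the authors annotated as intergenic. All of them lie inside the 19049-nt noncoding transcript AC020916.1 of GENCODE 29 (ENSG00000267519, chr19:13823880-13842928, minus strand), and in RefSeq inside MIR23AHG, the miR-23a host gene (chr19:13834516-13842918). The edges of the window cut off no peak, since the nearest other peaks on that strand were 1045045 nt downstream, in HOOK2, and 360681 nt upstream, in ADGRL1. Of the 52 peaks, 29 began in the first 1000 nt, 20 between 1001 and 4000 nt and 3 beyond 4000 nt.

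The hairpins start 6269 nt from the 5′ end and were covered by no peak. The nearest peak ended 157 nt upstream of the miR-23a hairpin, at chr19:13836816-13836899 in SKBG-1(R) replicate 2, with a log2 enrichment of 4.38. The 3 peaks beyond 4000 nt were all in SKBG-1(R) lists, 1 in replicate 1 and 2 in replicate 2. The peaks in the first 1000 nt numbered 4 of 7 in DMSO replicate 2, 2 of 5 and 10 of 20 for SKBG-1(R), and 5 of 7 and 8 of 13 for SKBG-1(S). With so few peaks in a list, no test of the distal ones was made.

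The window formed 20 regions, of which 2 were held by 5 lists, all but DMSO replicate 1. The region at chr19:13842473-13842701, which holds site A, had a log2 enrichment of 3.40 in DMSO replicate 2, 4.28 and 5.26 for SKBG-1(R) and 4.64 and 4.45 for SKBG-1(S). The region at chr19:13842327-13842472, which holds site B, had 3.95 in DMSO replicate 2, 3.77 and 4.18 for SKBG-1(R) and 4.05 and 4.50 for SKBG-1(S). At site A the 1 DMSO value lay below the 4 compound values, and at site B it lay among them. The next strongest regions, at chr19:13839445-13839497 and chr19:13839498-13839545, reached 4.84 and 4.70 and were in SKBG-1(R) replicate 2 alone.

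The bases under the chromosome 19 peaks were richer in G than the rest of the window. Of 1534 bases under a peak in at least 1 list, 71.1% were G or C and 42.6% were G, against 56.4% and 29.2% of the 4479 window bases under none. Under at least 4 lists, G made up 48.8% of 164 bases. The first 1000 nt are themselves 70.5% G and C, and within them the share was 74.1% under a peak and 64.8% elsewhere. These are descriptions of 1 transcript, with neighbouring bases that are not independent, and the part of base composition in the placement of peaks was not tested.

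C7orf50 differed from the other members in layout and in how few lists supported each site. It is a protein-coding gene (ENSG00000146540, chr7:996986-1138260, minus strand) whose intron holds the miR-339 hairpin at chr7:1022933-1023026. Of its 338 peaks, 321 were annotated over 500 nt into an intron, 13 in an intron nearer to a splice site, 2 in coding sequence and 2 in the 3′ untranslated region. None began within 5000 nt of the 5′ end of the gene, where 30.9% of peaks on annotated genes lay when lists were weighted by their C7orf50 peaks. Peaks ran along the gene from position 997071 to 1125316, 288 upstream of the hairpin and 50 downstream.

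Most C7orf50 peaks came from a single library. SKBG-1(R) replicate 2 held 264 of the 338 (78.1%), against 56.3% of all peaks, 30.6% of those on DLEU2 and 38.5% of those in the chromosome 19 window. The gene formed 260 regions, of which 215 (82.7%) were in 1 list, against 76.8% over the series, and 1 was held by 4 lists. That region, at chr7:1109582-1109809 in an intron, had a log2 enrichment of 3.06 in DMSO replicate 2, 4.19 in SKBG-1(R) replicate 2, and 3.49 and 3.75 for SKBG-1(S). The most enriched region, at chr7:1109991-1110188 and a short way upstream of it, had 4.05 in DMSO replicate 2, 6.14 in SKBG-1(R) replicate 2, with 3.64 in SKBG-1(S) replicate 2. The next, at chr7:1076725-1076897, had 5.63 in SKBG-1(R) replicate 2 and 3.33 in DMSO replicate 2. The regions at chr7:1027666-1027753 and chr7:1078470-1078618 tied at 5.59 in SKBG-1(R) replicate 2, and DMSO replicate 2 held the latter at 4.86.

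Near the miR-339 hairpin the C7orf50 peaks flanked the hairpin on both sides. There were 12 within 1000 nt of it, 9 in SKBG-1(R) replicate 2, 2 in DMSO replicate 2, with 1 in SKBG-1(S) replicate 2. The nearest ended 265 nt upstream, in a region at chr7:1023291-1023425 that 3 lists held, at log2 enrichments of 3.73 in DMSO replicate 2, 4.51 in SKBG-1(R) replicate 2, with 3.56 in SKBG-1(S) replicate 2. Downstream, peaks of DMSO replicate 2 and SKBG-1(R) replicate 2 began 343 and 348 nt from the hairpin, at 3.89 and 3.68. On the hairpin itself lay 1 more peak of SKBG-1(R) replicate 2, at chr7:1022960-1023072 with a −log10 p of 12.6 and a log2 enrichment of 3.55, which the authors annotated to MIR339 and which is therefore not among the 338. A further 4 peaks of 1 list on the same strand within the gene carried the name RP11-449P15.1.

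**Figure D3:**
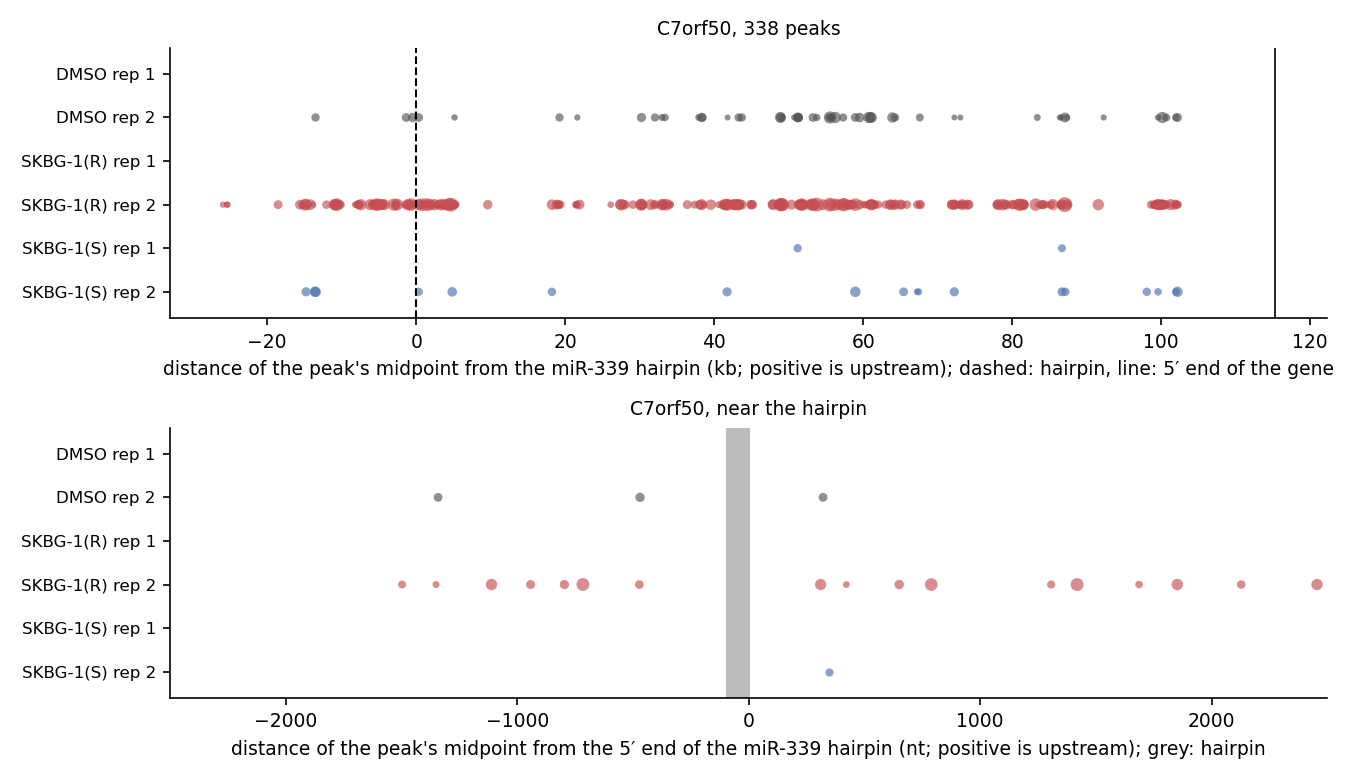
Each point is 1 C7orf50 peak in 1 list (rows), placed by its distance from the miR-339 hairpin, upstream to the right, with larger points for a higher deposited log2 enrichment. SKBG-1(R) replicate 2 holds 264 peaks, DMSO replicate 1 and SKBG-1(R) replicate 1 hold none, and the lower panel shows peaks on both sides of the hairpin.

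To compare treatments, the number of peaks on each transcript was expressed per 10000 peaks of its list, since the lists differed so much in length. DLEU2 had 3 and 14 peaks for DMSO, 6 and 26 for SKBG-1(R) and 10 and 26 for SKBG-1(S), replicate 1 first. Per 10000 peaks these were 44.8 and 38.1 for DMSO, 30.7 and 17.5 for SKBG-1(R), and 80.8 and 65.5 for SKBG-1(S). Per 10000 peaks the 3 groups did not overlap: both SKBG-1(R) lists were the lowest and both SKBG-1(S) lists the highest. The order rests on the scaling, since the raw counts of the groups overlapped. How many features had this order of all 3 groups was not counted, so how unusual it is remains unknown. The shares by pair describe a different event. By pair, both SKBG-1(R) lists lay below both DMSO lists for 9.38% of the 480 features tested. Both SKBG-1(S) lists lay above both DMSO lists for 13.5%, and above both SKBG-1(R) lists for 16.5%. The 95% Wilson intervals, which cover counting error only, were 15.3 to 131 for the 3 peaks of DMSO replicate 1 and 11.95 to 25.6 in SKBG-1(R) replicate 2. In SKBG-1(S) replicate 2 only 12 features had more peaks than DLEU2, and in SKBG-1(R) replicate 2 there were 121.

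The chromosome 19 window had 0 and 7 peaks for DMSO, 5 and 20 for SKBG-1(R) and 7 and 13 for SKBG-1(S). Per 10000 these were 0 and 19.03 for DMSO, 25.6 and 13.5 for SKBG-1(R), and 56.6 and 32.8 for SKBG-1(S). SKBG-1(S) was the highest in both lists, while DMSO and SKBG-1(R) overlapped. The 0 in DMSO replicate 1 rests on 669 peaks, where 3 peaks would already be 44.8 per 10000, more than the value of SKBG-1(S) replicate 2.

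C7orf50 had 0 and 54 peaks for DMSO, 0 and 264 for SKBG-1(R), and 2 and 18 for SKBG-1(S). Per 10000 these were 0 and 147 for DMSO, 0 and 178 for SKBG-1(R), and 16.2 and 45.4 for SKBG-1(S). All 3 groups overlapped, and the widest gaps were between the replicates of DMSO and between those of SKBG-1(R). For the 0 of SKBG-1(R) replicate 1, 3 peaks would be 15.4 per 10000, which is under the 178 of its replicate. For the 0 of DMSO replicate 1, 3 peaks would be 44.8, under the 147 of its replicate.

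**Figure D4:**
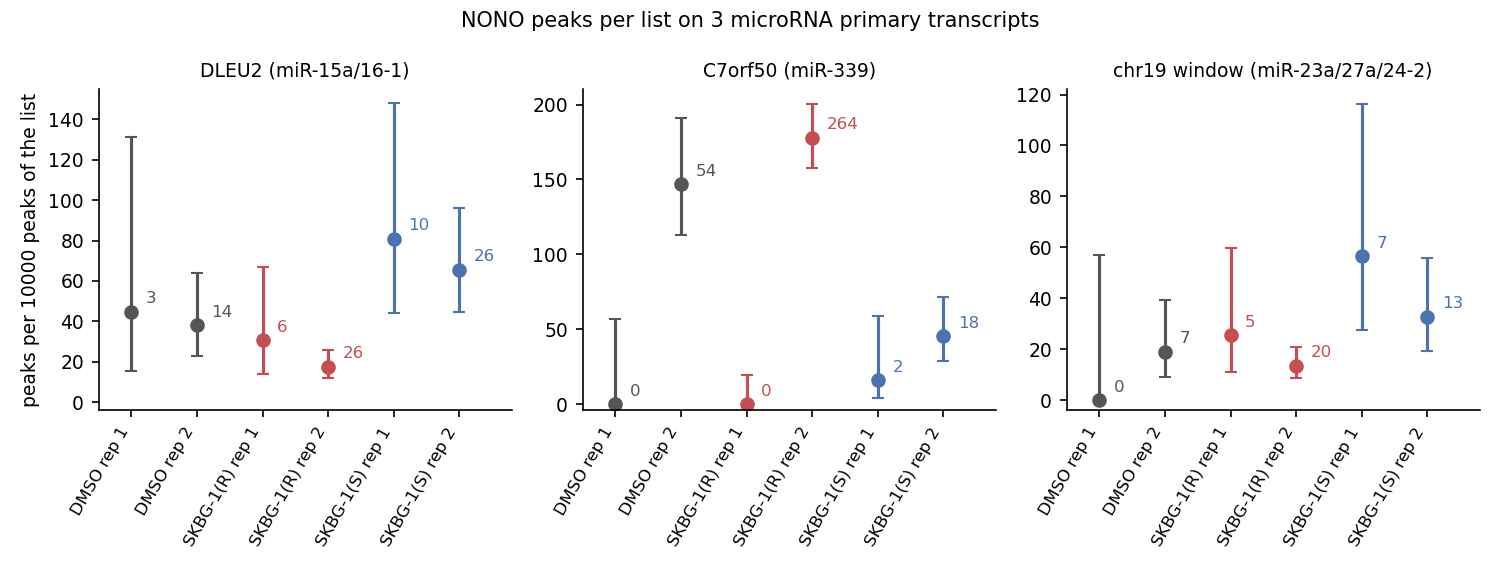
Points give each transcript's peaks per 10000 peaks of a list, bars the 95% Wilson interval for counting error, and the number beside a point the peaks counted. On DLEU2 the SKBG-1(S) lists are highest and the SKBG-1(R) lists lowest, and C7orf50 is at 0 in 2 of the 3 first replicates. Pairs of groups lay apart in the same directions for 9.38% to 16.5% of all features tested.

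SKBG-1(R) against DMSO asked whether this stereoisomer altered NONO contacts, and no change was called on any of the 3 transcripts. limma was fitted to log2 peaks per 10000 for the 480 features with at least 10 peaks, and 0 passed a Benjamini-Hochberg adjusted p of 0.05 (percent called 0), with 15 at an unadjusted p under 0.05. DLEU2 differed by −0.72 on the log2 scale (95% interval −2.65 to 1.22, limma adjusted p = 0.993), with both SKBG-1(R) lists below both DMSO lists, as held for 9.38% of the features tested. The chromosome 19 window differed by 1.17 (−1.06 to 3.40, adjusted p = 0.993) and C7orf50 by 0.13 (−2.93 to 3.20, adjusted p = 0.993), and the lists of both overlapped. None of the 3 had both SKBG-1(R) lists above both DMSO lists, where 10.4% of features did. The median over all features was 0.23. The DLEU2 direction depends on the scaling to list length, since without it the difference was 0.74, beside a shift of the median of all features to 1.10. It was also 0.61 when only peaks with a log2 enrichment of at least 4 were counted. Other settings kept the sign but brought it nearer to 0, at −0.096 with lists of equal length, −0.21 with median-of-ratios scaling, −0.25 with a −log10 p of at least 5 and −0.34 without SKBG-1(R) replicate 2.

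SKBG-1(S) against DMSO gave positive differences on all 3 transcripts and again no call, with C7orf50 turning to −0.24 without scaling and −0.20 with median-of-ratios scaling. It uses the same DMSO lists as the comparison above, so the values of the pair of comparisons are not independent. The chromosome 19 window differed by 2.20 on the log2 scale (−0.030 to 4.44, limma adjusted p = 1), and 7 of 480 features had a larger difference. DLEU2 differed by 0.75 (−1.18 to 2.69, adjusted p = 1) and C7orf50 by 0.29 (−2.78 to 3.36, adjusted p = 1). Both SKBG-1(S) lists lay above both DMSO lists for DLEU2 and the window, as they did for 13.5% of the features tested, and none of the 3 lay below, where 4.79% did. By limma 0 features were called (percent called 0), with 6 at an unadjusted p under 0.05. In the window the difference was 1.04 without DMSO replicate 1, the shortest list, 3.43 without DMSO replicate 2 and 0.63 with lists of equal length.

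SKBG-1(R) against SKBG-1(S), at the same 20 µM and 4 h, compared stereoisomers, which differ only in the arrangement of groups in space. This was 1 of 3 pairs of groups compared, and p-values were adjusted over the features within each pair. DLEU2 was lower in both SKBG-1(R) lists than in both SKBG-1(S) lists, by −1.47 on the log2 scale (−3.41 to 0.46, limma adjusted p = 0.995), but by −0.86 with median-of-ratios scaling and −0.29 without scaling. The chromosome 19 window differed in the same direction by −1.03 (−3.27 to 1.20, adjusted p = 0.995), also without overlap, but by 0.095 without scaling. In all, 16.5% of features tested had both SKBG-1(R) lists below both SKBG-1(S) lists. C7orf50 differed by −0.16 (−3.23 to 2.91, adjusted p = 0.995) with overlap, but by 1.37 without scaling and 0.66 with median-of-ratios scaling. None of the 3 had both SKBG-1(R) lists above, where 6.25% of features did. Here too 0 features were called by limma (percent called 0), with 5 at an unadjusted p under 0.05. The intervals reach differences of over 3 on the log2 scale, so they do not show that the stereoisomers act alike on these RNAs.

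**Figure D5:**
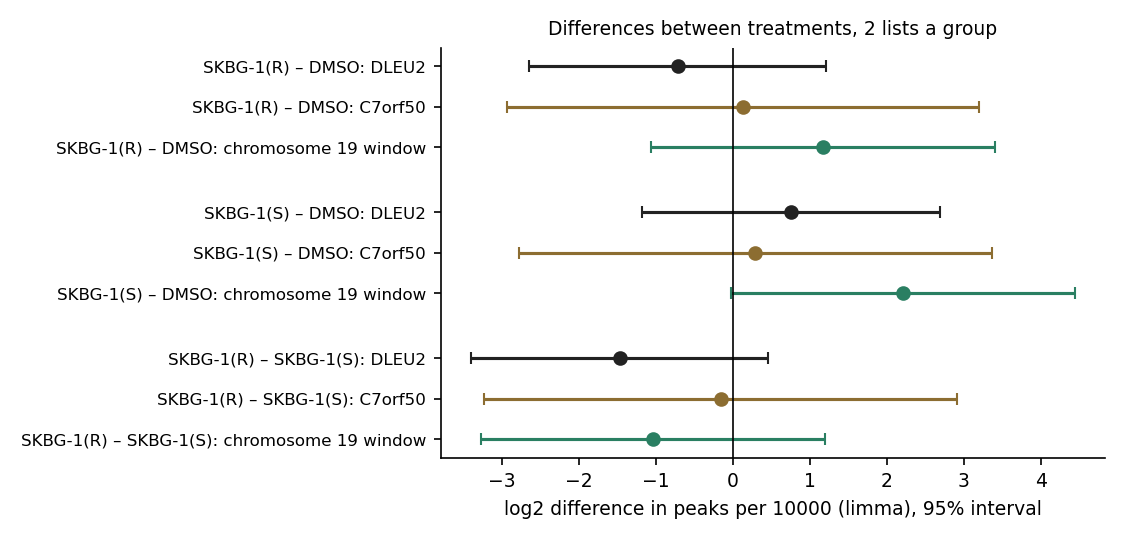
Points give the limma difference in log2 peaks per 10000 for each transcript in the 3 comparisons, and bars the 95% interval, from 2 lists a group. Every interval includes 0, and the widest are those of C7orf50.

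Most other microRNA host genes on a list of 63 held no peak. Among those that did, MIRLET7BHG held the most, 662 over all 6 lists. In all 12 of the 63 (19.05%) held at least 1, against 7.36% of the 19951 protein-coding genes of GENCODE 29, and 6 had the 10 peaks needed for the fit: MIRLET7BHG (let-7a-3 and let-7b), MIR17HG (the miR-17 to miR-92a cluster), NFYC (miR-30c-1 and miR-30e), PPARGC1B (miR-378a), DLEU2 and C7orf50. The 12 include DLEU2 and C7orf50, which were chosen for having peaks, and the list holds noncoding hosts besides protein-coding ones. It was also drawn up with earlier results of these data known, so its share with a peak is a description and was not tested. None of the 6 was called in any comparison, and 51 of the 63 held no peak at all. Their median log2 difference from DMSO was 0.34 with SKBG-1(R), beside 0.23 over all features tested, and 0.43 with SKBG-1(S), beside 0.14. Between the stereoisomers it was −0.10, beside −0.080. MIR17HG, for comparison with DLEU2, had 0 and 2 peaks for DMSO, 2 and 3 for SKBG-1(R) and 3 and 2 for SKBG-1(S). PPARGC1B had 0 and 6, 2 and 14, and 0 and 4.

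Of 25 genes for microRNA processing proteins, 4 (16%) had a peak: DGCR8, the partner of Drosha, with 2, DICER1 with 3, TNRC6B, a partner of Argonaute, with 4, and ADAR, which edits RNA, with 1. None reached 10 peaks, so none was tested, and these 4 are named after their values were seen.

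Across the 6 lists, the features whose log2 peaks per 10000 were most like DLEU2 were KMT5B (Pearson r = 0.93), YWHAE (0.89) and XKR6 (0.86). For the chromosome 19 window they were ZBTB2 (0.96), CTNNA1 (0.95) and PSD (0.95), and for C7orf50 CSNK1G2 (0.999), NOTCH1 (0.998) and BAHCC1 (0.992). These correlations are over 6 lists that share treatments and list lengths, and the highest of 480 features were picked, so they are descriptions. Between the members themselves r was 0.37 for DLEU2 with the window, 0.28 for C7orf50 with the window and −0.28 for DLEU2 with C7orf50.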

How the data were processed

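NONO eCLIP was made from 22Rv1 cells in 3 groups, each with 2 immunoprecipitation libraries and their inputs, and the deposited peak lists, 1 per immunoprecipitation, were analysed here. The submitters' processing notes name cutadapt 1.9, STAR 2.4.0i, hg19 and hg38 (GRCh38). The peak caller is not given in the sources used here. Each deposited peak carries the authors' −log10 p (at least 3, up to 400, the value of 47 peaks) and the authors' log2 enrichment over input (at least 3). The lists were on GRCh38, since 99.5% of 9850 annotated transcripts had GENCODE 29 coordinates within 1 nt.

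Peaks were counted per annotated gene, the window being 1 feature, per 10000 peaks of the list. A prior count of 2 peaks, scaled to list length so that a longer list received more, was added before taking log2. These log2 values were tested by limma 3.58.1 (R 4.3.3, trended variance, all 6 lists in 1 fit, features with at least 10 peaks), with Benjamini-Hochberg adjustment at 0.05. Peaks under joint gene names (1.31%) kept them. Regions were merged where peaks shared at least 1 nt on a strand. No read counts were used here, so depth is unknown and list length sets the precision.

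Members and lists were chosen with earlier results of these data known. Named are the members, their regions held by at least 4 lists or among the 3 most enriched, the 3 features most like each member, and host or processing genes with at least 10 peaks; the 4 processing genes with fewer were named after their values were seen. The C7orf50 peaks near the hairpin and the DLEU2 peaks by the internal start are described besides. Alternatives were stricter peaks, other scaling, filters, prior count, peak width, equal list lengths, shared joint names, a replicate block and leaving out each list. One of the cell type markers is not reported here.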

Additional observations from a re-analysis of the deposited data

How the results depend on the processing

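None of the 159 alternative values for the members was called (limma adjusted p 0.202 to 1). With 2 lists a group and intervals of about 2.23 on either side of a median feature, only large differences could be seen. Features called for SKBG-1(R) against DMSO went from 0 to 1 with at least 5 peaks, with summed peak width, with joint names shared and with the replicate block. Leaving out 1 list gave 0 to 23 there and 0 to 23 for SKBG-1(R) against SKBG-1(S), each 23 without SKBG-1(R) replicate 1, and 1 for SKBG-1(R) against DMSO without DMSO replicate 2. The cause was not tested.

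Reversals in SKBG-1(R) against DMSO were DLEU2 at 0.61 with log2 enrichment of at least 4 and 0.74 without scaling, and the chromosome 19 window at −0.37 with lists of equal length. Without 1 list, the window ranged from −0.019 (without DMSO replicate 1) to 2.39, and C7orf50 from −2.50 to 2.87, being −2.08 without SKBG-1(R) replicate 2. In SKBG-1(S) against DMSO, C7orf50 was −0.73 with log2 enrichment of at least 4, −0.74 with −log10 p of at least 5, −0.24 without scaling and −0.20 with median-of-ratios scaling, and −2.26 to 2.86 without 1 list. In SKBG-1(R) against SKBG-1(S), C7orf50 was 0.99, 1.12, 1.37 and 0.66 under the same settings and −2.08 to 2.52 without 1 list, and the window was 0.095 without scaling. Without scaling the median of all features moved to 1.10, 0.21 and 0.74 in the order of comparisons, and with median-of-ratios scaling to 0.47, 0.03 and 0.33. Regions held by at least 4 lists went from 8 to 1 with log2 enrichment of at least 4. C7orf50 could not be fitted with lists of equal length, which left it 1 peak.

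Same-numbered lists deviated together (r = 0.54, 0.57 and 0.42), but the labels tie the numbers to no shared culture or day and there are only 2. In every group replicate 2 was also the longer list, so replicate number and list length cannot be told apart here. With the number as a block, the members' differences cannot change, since each group has 1 list of each number. For example, DLEU2 stays at −0.72 in SKBG-1(R) against DMSO. Only the estimated spread can move, and the members' limma adjusted p was 0.617 to 1, with no member called.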

Other observations

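Most microRNA hairpins of the RefSeq set had no NONO peak nearby. Of 1560 hairpins, 12 were overlapped by a peak, 46 (2.95%) had one within 1000 nt on the same strand and 85 within 5000 nt. These counts leave out MIR661, MIR4664, MIR4523 and MIR612, to which the authors annotated 3, 3, 1 and 1 peaks. Within 1000 nt, 5 hairpins had peaks in at least 4 lists: MIR3619, within MIRLET7BHG, with 25 peaks in 6 lists, MIR4479, within TRAF2, with 19 in 5, MIRLET7I with 16 in 5, MIR3176, within CAPN15, with 37 in 4, and MIR3180-4 with 6 in 4. By list, MIRLET7I had 3 and 4 peaks for DMSO, 1 and 3 for SKBG-1(R), and 0 and 5 for SKBG-1(S). MIR3176 was overlapped by 7 peaks in 4 lists, more than any other hairpin. These hairpins were named after their values were seen, and no test was made.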
